A study of Penicillium oxalicum with 9 samples.

Results

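Of the 9834 gene IDs in the RNA sequencing data of Penicillium oxalicum, 18 met a rule for genes higher in 2 regulator mutants than in the strain Ku70. Their transcript levels in every mutant library exceeded those in every Ku70 library by a set margin. The genes were chosen by their FPKM values, a measure of transcript level that corrects fragment numbers for gene length and sequencing depth. In each, the lowest of the 6 mutant libraries was at least 5 FPKM and at least 1.5 times the highest of the 3 Ku70 libraries. A gene was left out where one mutant stood far above the other. For this limit, the lowest MuPOX01907 value had to be under 3 times the highest MuPOX08340 value, and the lowest MuPOX08340 value under 2 times the highest MuPOX01907 value. As these values chose the genes, their difference from Ku70 is given below as a description and not as a test.

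The strains MuPOX01907 and MuPOX08340 are mutants of the genes POX01907 and POX08340, studied among transcription factors that govern amylase genes, and Ku70 is the comparison strain. Each is represented by 3 libraries that carry the letters F, S and T. The sample titles call Ku70 a mutant as well, and the tags of its libraries carry the name POX01907 but not POX08340. By the sample titles, both mutants grew in liquid medium with 1% starch and Ku70 in liquid medium with 1% Avicel, a microcrystalline cellulose, all for 24 h. The growth protocol, shared by all 9 libraries, names spores of MuKu70, medium with Avicel, shaking at 180 rpm and 28 °C. The labels do not say whether both mutants also lack Ku70, how many transformants were used, or whether the libraries come from separate cultures. Spread between libraries may therefore be technical. In every comparison with Ku70 the mutation and the stated medium cannot be told apart, and a gene that is higher in both mutants is also a gene that is higher in both groups stated to be on starch.

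Filamentous fungi of this genus feed by secreting enzymes that break down polysaccharides. Starch is cut by amylases and glucoamylases, whose genes in related moulds are switched on by a zinc cluster activator once starch breakdown products are sensed, and cellulose is cut by cellulases and hemicellulases under other activators. Easily used sugars repress both sets of genes through carbon catabolite repression. Ku70 is a protein of the non-homologous end joining pathway of DNA repair, and fungal strains without it are widely used as parents for targeted gene deletion. The deposited tables pair the IDs with no gene names, so what the 18 genes encode is not given here, and the identity of the mycelium could not be checked against marker genes.

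Total expected counts, the estimated reads per gene summed over a library, lay between 14412296 and 14802260. POX01907 had 1 to 3 reads per library in its own mutant and 1346 to 1968 elsewhere. POX08340 had 0 reads in its own mutant, 208 to 232 in MuPOX01907 and 870 to 1013 in Ku70. Ku70 F stood apart from its group: across 8589 genes with a mean of at least 1 FPKM, which are not independent replicates, its log2(FPKM + 1) values had a Pearson correlation of 0.874 with Ku70 S and 0.86 with Ku70 T. Within the other sets of libraries of a group the correlation was at least 0.9675. No 2 libraries of a group agreed within sampling noise, as the chi-square of their counts over genes was at least 17.5 per degree of freedom.

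The rule reached few genes. In 6555 of the 9834 IDs the lowest mutant value was at least 5 FPKM, in 377 of these it also exceeded the highest Ku70 value, and in 22 it did so by at least 1.5 times. Among all genes with a mean of at least 1 FPKM, 4.73% had all 6 mutant libraries above all 3 Ku70 libraries. The opposite order was commoner at the same thresholds, as 139 IDs had a lowest Ku70 value of at least 5 FPKM and at least 1.5 times the highest mutant value. Deposited FPKM lay lower in MuPOX01907 than in Ku70 for the median gene (log2 -0.29), and the opposite order was not counted after scaling. Of the 22, the limits between both mutants removed 4.

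**Figure D1:**
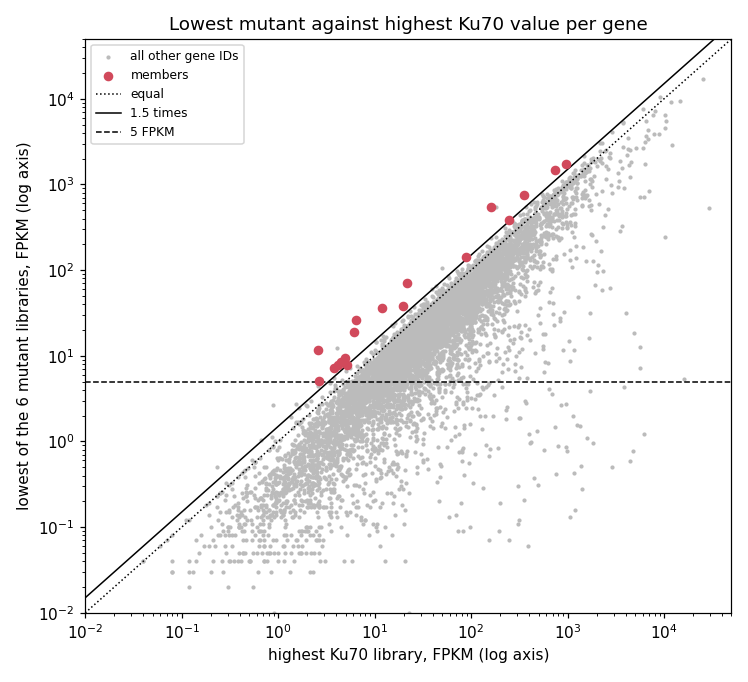
The highest Ku70 library (x axis) against the lowest mutant library (y axis) in FPKM, both on log axes, for every gene ID above 0 in both. The 18 members, in red, lie above the solid line of 1.5 times and above the dashed line of 5 FPKM, at the upper edge of a cloud of IDs that lie mostly under the dotted line of equal values.

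The removed genes show where the limits lay. POX05132 measured 2223, 2130 and 2427 FPKM in MuPOX01907 F, S and T, 697, 542 and 604 in MuPOX08340, and 12.1, 180 and 113 in Ku70. POX08698, POX08700 and POX08753 had the opposite order of the mutants. POX08698, for example, stood at 510, 383 and 359 FPKM in MuPOX08340, at 130, 139 and 107 in MuPOX01907 and at 21.3, 50.5 and 44.1 in Ku70. At the 1.5-fold threshold, the 3 members just inside were POX06323 with a ratio of lowest mutant to highest Ku70 value of 1.52, POX00414 with 1.54 and POX01460 with 1.60. Just outside were POX09516 with a ratio of 1.4986, POX04195 with 1.49 and POX08716 with 1.49. Genes on both sides of the line thus had nearly the same margin.

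The 18 members differed from one another mostly in level. In both mutants, 6 averaged at least 100 FPKM and 8 averaged under 30 FPKM, with 4 in between. Together they took 0.926% ± 0.0332 of all counts in MuPOX01907 (SD, n = 3), 0.641% ± 0.0339 in MuPOX08340 (n = 3) and 0.181% ± 0.0811 in Ku70 (n = 3). In Ku70 F the share was 0.0879%, against 0.223% in S and 0.233% in T. The 3 most abundant members, POX07971, POX04524 and POX08821, held between 66.9% and 78% of the members' counts in each mutant library.

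**Figure D2:**
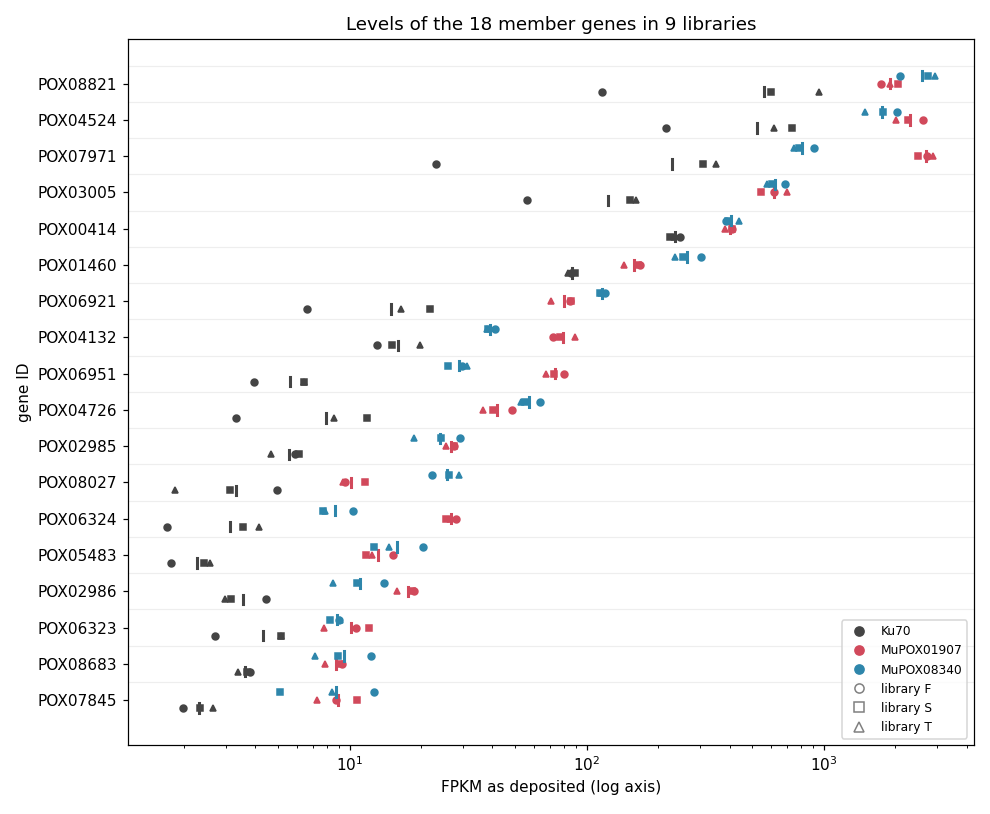
FPKM as deposited (x axis, log) of the 18 members (y axis) in 9 libraries. Points are libraries, their shape gives the letter F, S or T, and vertical bars are group means. In each row the grey Ku70 points lie left of the red and blue mutant points, and Ku70 F, the grey circle, lies far to the left in several of the most abundant genes.

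POX07971 showed the widest range of the abundant members. It measured 2722, 2503 and 2902 FPKM in MuPOX01907 F, S and T, 908, 785 and 745 in MuPOX08340, and 23.2, 309 and 351 in Ku70. All libraries of MuPOX01907 lay above those of MuPOX08340, and Ku70 F lay far under the other libraries of its strain. The gene moved from rank 746 of all IDs by mean FPKM in Ku70 to rank 229 in MuPOX08340 and rank 52 in MuPOX01907. Its mean was 11.9-fold that of Ku70 in MuPOX01907 and 3.57-fold in MuPOX08340, and against the mean of Ku70 S and T alone these values were 8.21 and 2.46.

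As deposited, POX08821 was higher in MuPOX08340, at 2092, 2761 and 2947 FPKM in F, S and T, than in MuPOX01907, at 1735, 2051 and 1903. Ku70 held 116, 599 and 957 FPKM. All 3 Ku70 libraries differed widely here, with a coefficient of variation of 75.7%, against 8.31% in MuPOX01907 and 17.3% in MuPOX08340. POX04524 had 2632, 2273 and 2016 FPKM in MuPOX01907, 2028, 1780 and 1493 in MuPOX08340 and 215, 738 and 618 in Ku70, so that both mutants overlapped. In fold over the Ku70 mean, POX08821 stood at 3.40 in MuPOX01907 and 4.67 in MuPOX08340, and POX04524 at 4.41 and 3.38.

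POX03005 was at nearly the same level in both mutants, with 614, 543 and 699 FPKM in MuPOX01907 and 688, 606 and 577 in MuPOX08340. Ku70 held 55.9, 152 and 161 FPKM of it in F, S and T, and its mean was 5.03-fold higher in MuPOX01907 and 5.07-fold higher in MuPOX08340. It kept one of the wider margins, with the lowest mutant value 3.37 times the highest Ku70 value.

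The remaining abundant members, POX00414 and POX01460, had the smallest folds in MuPOX01907 and the tightest Ku70 values. POX00414 measured 247, 224 and 233 FPKM in Ku70 F, S and T, 409, 412 and 381 in MuPOX01907 and 385, 393 and 437 in MuPOX08340. POX01460 measured 85.6, 89.4 and 83.6 FPKM in Ku70, 168, 165 and 143 in MuPOX01907 and 302, 255 and 236 in MuPOX08340. Their coefficients of variation in Ku70 were 4.84% and 3.42%, against a median of 22.2% over all genes with a mean of at least 1 FPKM. The fold over Ku70 was 1.71 in MuPOX01907 and 1.73 in MuPOX08340 for POX00414, and 1.84 and 3.07 for POX01460.

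At intermediate levels stood 4 members, with the larger fold over Ku70 in MuPOX01907 for one pair and in MuPOX08340 for the other. POX06951 measured 80.3, 72.4 and 67.5 FPKM in MuPOX01907, 29.8, 26.0 and 31.3 in MuPOX08340 and 3.95, 6.40 and 6.39 in Ku70. POX04132 measured 71.8, 76.8 and 89.0 FPKM in MuPOX01907, 40.9, 38.3 and 38.0 in MuPOX08340 and 13.02, 15.1 and 19.7 in Ku70. Both were higher in MuPOX01907, and the mean FPKM of POX06951 was 13.2-fold that of Ku70 there, beside 5.20-fold in MuPOX08340.

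POX06921 and POX04726 had the reverse order of the mutants. POX06921 stood at 120, 114 and 115 FPKM in MuPOX08340, 85.4, 85.6 and 70.4 in MuPOX01907 and 6.60, 21.7 and 16.5 in Ku70. POX04726 stood at 63.2, 55.1 and 52.9 FPKM in MuPOX08340, 48.4, 40.1 and 36.5 in MuPOX01907 and 3.32, 11.9 and 8.60 in Ku70. In both genes the libraries of the mutants did not overlap in FPKM as deposited, and Ku70 F was the lowest of all 9 libraries. Their folds over Ku70 were 5.38 and 5.25 in MuPOX01907 and 7.78 and 7.20 in MuPOX08340.

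The 8 members of low level include the one with the widest margin. POX05483 measured 15.2, 11.7 and 12.4 FPKM in MuPOX01907, 20.4, 12.6 and 14.7 in MuPOX08340 and 1.77, 2.43 and 2.58 in Ku70, so that its lowest mutant library was 4.54 times its highest Ku70 library. POX08027 was higher in MuPOX08340, at 22.3, 26.2 and 29.0 FPKM, than in MuPOX01907, at 9.51, 11.6 and 9.35, with 4.93, 3.13 and 1.83 in Ku70. In POX08027, unlike in most members, Ku70 F was the highest of the Ku70 libraries, and the mean was 7.84-fold that of Ku70 in MuPOX08340.

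POX07845 and POX08683 were low in all 3 strains. POX07845 measured 8.74, 10.7 and 7.28 FPKM in MuPOX01907, 12.7, 5.06 and 8.40 in MuPOX08340 and 1.98, 2.33 and 2.66 in Ku70. POX08683 measured 9.29, 8.97 and 7.87 FPKM in MuPOX01907, 12.3, 8.90 and 7.15 in MuPOX08340 and 3.79, 3.68 and 3.39 in Ku70. Their mutant libraries overlapped fully, and the lowest value of POX07845, in MuPOX08340 S, lay just above the minimum of 5 FPKM. POX07845 rests on few reads, with 21 summed over the Ku70 libraries (exact Poisson 95% interval 13 to 32.1), 80 in MuPOX01907 (63.4 to 99.6) and 78 in MuPOX08340 (61.7 to 97.3). These intervals cover counting error only.

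The last 4 members of low level form 2 pairs of consecutive IDs. POX02985 measured 27.4, 27.4 and 25.4 FPKM in MuPOX01907, 29.2, 24.2 and 18.8 in MuPOX08340 and 5.90, 6.12 and 4.65 in Ku70. Its neighbour POX02986 measured 18.7, 18.3 and 15.8 FPKM in MuPOX01907, 14, 10.7 and 8.50 in MuPOX08340 and 4.44, 3.16 and 2.99 in Ku70. Their means exceeded those of Ku70 by similar factors in MuPOX01907, 4.81 for POX02985 and 4.98 for POX02986. In MuPOX08340 the folds over Ku70 were 4.33 for POX02985 and 3.14 for POX02986. The IDs next to the pair did not share the pattern, POX02984 averaging 37.2 FPKM in Ku70, 21.4 in MuPOX01907 and 39.8 in MuPOX08340, and POX02987 averaging 9.36, 8.39 and 12.2.

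In the other pair, POX06323 and POX06324, the mutants differed in one gene more than in the other. POX06324 measured 28.2, 25.4 and 26.5 FPKM in MuPOX01907, 10.3, 7.72 and 7.88 in MuPOX08340 and 1.69, 3.55 and 4.14 in Ku70. POX06323 measured 10.6, 12.1 and 7.77 FPKM in MuPOX01907, 9.04, 8.24 and 9.11 in MuPOX08340 and 2.69, 5.11 and 5.11 in Ku70. The ratio of the MuPOX01907 mean to the MuPOX08340 mean was 3.09 in POX06324 and 1.16 in POX06323. POX06323 had 43 reads summed over Ku70, 101 over MuPOX01907 and 87 over MuPOX08340. Whether consecutive IDs lie side by side on a chromosome was not tested.

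Beyond these pairs, few genes beside the members followed them, which is also true of genes at large. Of the 32 non-member IDs 1 number away from a member, 29 averaged at least 1 FPKM, and 2 of these, POX05482 and POX08820, had all mutant libraries above all Ku70 libraries, against 4.73% of all genes. POX05482, beside POX05483, averaged 3432 FPKM in MuPOX01907, 3040 in MuPOX08340 and 988 in Ku70. It was not a member because its lowest mutant value of 2429 FPKM was under 1.5 times the highest Ku70 value of 2151. Some neighbours differed between the mutants more than from Ku70 in one of them. POX06952, beside POX06951, averaged 19.9 FPKM in MuPOX01907, 1.95 in MuPOX08340 and 1.19 in Ku70, while POX04523, beside POX04524, averaged 136, 389 and 111 FPKM in the same order. POX08683 lies 3 numbers before POX08686, which averaged 945 ± 86.4 FPKM in MuPOX01907, 3.56 ± 0.657 in MuPOX08340 and 3.10 ± 1.75 in Ku70 (SD, n = 3 each), while POX08683 itself had overlapping values in both mutants.

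**Figure D3:**
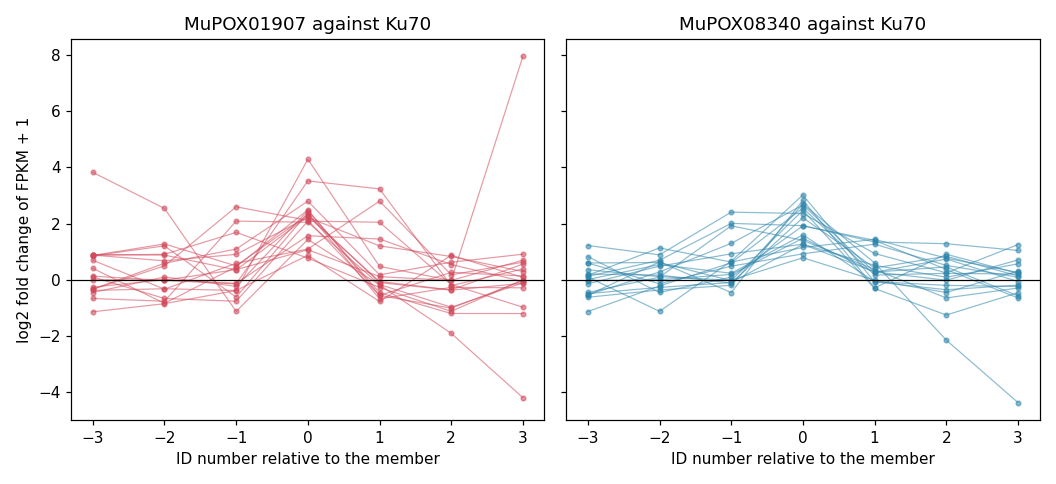
Log2 fold change of mean log2(FPKM + 1) against Ku70 (y axis) of each member, at 0 on the x axis, and of the IDs up to 3 numbers before and after it, in MuPOX01907 (left) and MuPOX08340 (right). Each line is 1 member. All values at position 0 are positive, as the rule requires of the members, and those at other positions lie on both sides of 0. Some neighbours exceed their member, as POX05482 does (2.60 against 2.11 for POX05483), and as POX08686 does at 7.96, 3 numbers after POX08683, both in MuPOX01907.

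Against Ku70, edgeR called all 18 members higher in MuPOX01907, at an adjusted p under 0.05 and a log2 fold change of at least 1, where 9.53% of the 8623 genes tested were called higher. In MuPOX08340 it called 15 of the 18 higher, where 2.78% of all genes were. Nothing is read from these counts, because the rule used the same contrasts, and both comparisons share the Ku70 libraries. The median log2 fold change of the members was 2.61 in MuPOX01907 and 1.85 in MuPOX08340, beside -0.03 and -0.0012 over all genes tested. POX07971 (log2 1.83), POX00414 (log2 0.77) and POX06323 (log2 1.01) were the members not called in MuPOX08340. With MuPOX08340 and Ku70 fitted alone, 10 of the 18 were called there, where 113 of 8508 genes tested were called higher. Without Ku70 F, 16 were called, POX07971 included, where 276 of 8681 genes were.

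The Ku70 values of the members varied more than those of the mutants. The median coefficient of variation over the 18 genes was 28.9% in Ku70, 9.98% in MuPOX01907 and 13% in MuPOX08340, beside 22.2%, 10.7% and 13.1% over all genes with a mean of at least 1 FPKM. Ku70 F was the lowest Ku70 library in 12 members, and in 44% of all those genes. In 7 members the mean of Ku70 S and T was at least 2 times the value in Ku70 F, as it was in 11.9% of all those genes. These were POX07971 (14.2 times), POX08821 (6.71), POX04524 (3.15), POX04726 (3.08), POX06921 (2.90), POX03005 (2.80) and POX06324 (2.28), and 4 of them are among the 6 most abundant members. In POX08027, by contrast, the mean of Ku70 S and T was 0.503 times the value in Ku70 F. As the rule used the Ku70 values of the members, these spreads and shares are a description and not a test. The part of Ku70 F in the fold over Ku70 shows in the values against S and T alone, whose median over members was 4.08 in MuPOX01907 and 3.42 in MuPOX08340, against 4.89 and 3.66 with all Ku70 libraries.

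**Figure D4:**
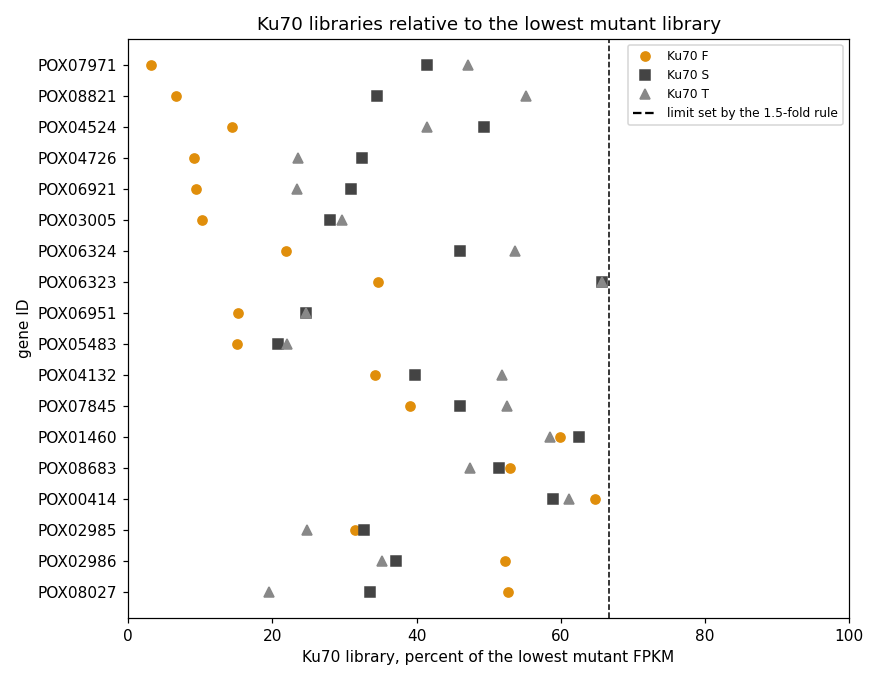
Each Ku70 library as a percent of the lowest of the 6 mutant libraries (x axis) for the 18 members (y axis), ordered by the ratio of the mean of Ku70 S and T to Ku70 F. The dashed line is the upper limit that the 1.5-fold rule sets. Ku70 F, in orange, lies far left of S and T in the upper rows, such as POX07971 and POX08821, and right of both in POX08027 and POX02986.

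The sample titles give both mutants the same medium. Set against each other, the mutants divided the members into genes higher in MuPOX01907, genes higher in MuPOX08340 and genes at like levels, within the limits that the rule set. In FPKM as deposited, the libraries of both mutants did not overlap in 10 members, 5 in each direction. POX07971, POX06324, POX06951, POX04132 and POX02986 were higher in MuPOX01907, with ratios of the means of 3.33, 3.09, 2.53, 2.03 and 1.59. POX08027, POX01460, POX06921, POX08821 and POX04726 were higher in MuPOX08340, with ratios of 2.55, 1.67, 1.45, 1.37 and 1.37. Of all genes with a mean of at least 1 FPKM, 16.9% had all MuPOX01907 libraries above all MuPOX08340 libraries and 49.4% the reverse, so that deposited FPKM lay lower in MuPOX01907 over much of the gene set.

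Scaling the libraries to a common level of most genes shifted this balance. The TMM factors, which edgeR derives from the bulk of genes, were 0.847 to 0.868 in MuPOX01907 and 1.05 to 1.11 in the other libraries. After division by them, 29.5% of genes lay higher in MuPOX01907 and 29.8% higher in MuPOX08340 without overlap. Among the members, 10 then lay higher in MuPOX01907 without overlap and 3, POX08027, POX01460 and POX06921, higher in MuPOX08340. POX08821 and POX04726, without overlap as deposited, then overlapped, with means of 2214 and 48.7 in MuPOX01907 and 2389 and 52.3 in MuPOX08340. The limits of the rule, 3 times for MuPOX01907 and 2 times for MuPOX08340, acted on unscaled FPKM. They left out 1 gene too high in MuPOX01907 and 3 too high in MuPOX08340. The split of 10 and 3 was thus shaped in part by the rule, and nothing is read from it. The order of the mutants turned with this scaling in POX05483, POX03005, POX08683 and POX00414, whose scaled means differed by at most 1.27-fold. Every member kept a mean above that of Ku70, with scaled folds of 2.14 to 16.5 (median 6.12) in MuPOX01907 and 1.70 to 7.68 (median 3.62) in MuPOX08340. Factors of this size could not undo the 1.5-fold margin of the rule, so that this order was fixed in advance.

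**Figure D5:**
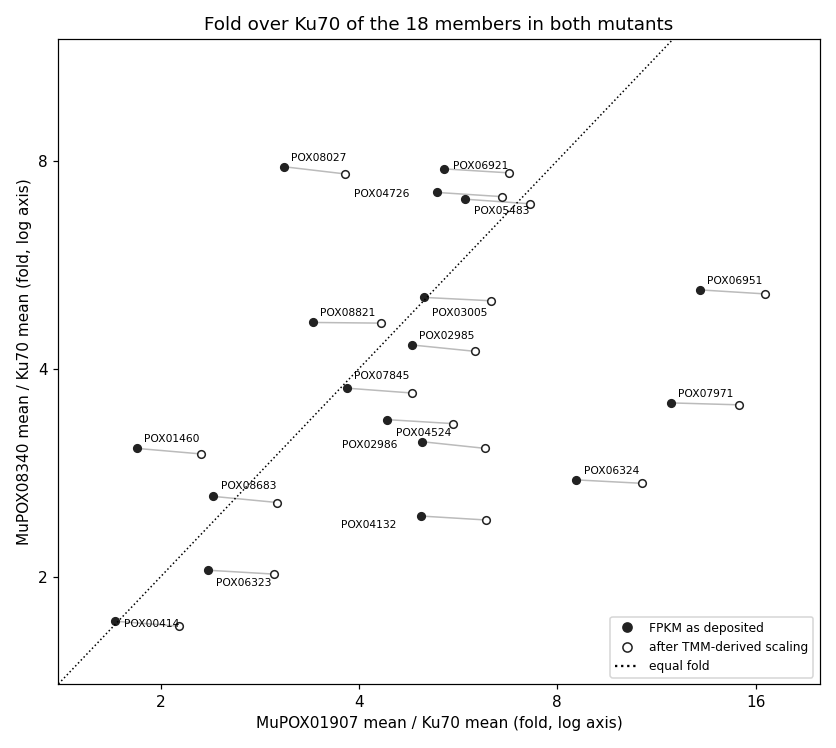
Ratio of the mean in MuPOX01907 to the mean in Ku70 (x axis) against the ratio for MuPOX08340 (y axis) of the 18 members, on log axes. Filled points are FPKM as deposited and open points FPKM after TMM-derived scaling, joined by a line, and the dotted line marks equal folds. POX06951, POX07971 and POX06324 lie far to the right, POX08027 and POX01460 above the line, and scaling moves each point to the right.

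In the count model, which includes that scaling, edgeR called 4 members higher in MuPOX01907 and 1 higher in MuPOX08340 when the mutants were compared, where 10.4% and 9.86% of all genes were called. POX06951 (log2 1.69), POX06324 (log2 1.98), POX04132 (log2 1.37) and POX02986 (log2 1.02) were higher in MuPOX01907 and POX08027 (log2 -1.003) in MuPOX08340. The call of POX08027 was lost in 10 of 17 alternatives, DESeq2, other size factors and the replicate block among them, whereas POX06951 and POX06324 were called in all 17. POX07971 had the largest log2 difference, 2.09, and was not called, but it was called without Ku70 F, which enters through the shared spread. With both mutants fitted alone and their libraries paired by letter, 5 members were called higher in MuPOX01907, POX07971 included, and 0 in MuPOX08340. Of the 8478 genes tested in that fit, 1017 were called higher in MuPOX01907 and 930 in MuPOX08340. As the rule limited this difference, these counts also serve as a description.

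The members shared no common length. The length implied by counts and FPKM had a median of 1124 bases, beside 1233 over all genes with a mean of at least 1 FPKM. This implied length need not equal the annotated gene length. It ranged from 205 bases in POX07845, 227 in POX06323 and 262 in POX08027 to 3015 in POX04132, 3133 in POX06324 and 3449 in POX02985. An implied length under 500 bases was found in 5 members and in 15.5% of those genes, and one over 3000 bases in 3 members and in 8.24%. An expected count that was not whole in at least 1 library was found in 4 members, POX05483, POX06921, POX04726 and POX08027, each in 1 library. This is 22.2% of the members, beside 14.5% of those genes, and an estimated count that is not whole is usual where reads match more than 1 gene.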

How the data were processed

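RNA sequencing of mycelium gave 9 libraries in 3 groups of 3, grouped by the strain in the sample titles. Per the labels' protocols, total RNA was isolated with TRIzol and its cDNA read on an Illumina machine. The authors deposited, per library, expected counts (estimated reads per gene, not scaled) and FPKM (per the file headers). The tools named in the submitters' processing notes are RSEM 1.2.12, DESeq2, Bowtie2 2.1.0 and BWA 0.7.10-r789, with no role stated. Genome build, annotation and strandedness are likewise not given in the sources used, so genes with close copies or antisense partners carry an added uncertainty.

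The 18 genes were taken from deposited FPKM by the stated rule. The genes, the tests and the rule for named genes were chosen with earlier results of these data known. With 18 members, all were named, beside the genes nearest the thresholds. POX05132, POX08698, POX08700, POX08753 and the IDs next to members were named after their values were seen. None of the 9834 IDs matched a RefSeq table of assembly ASM172317v3 (0 matches), and lengths at the same running number were unrelated (correlation 0.0141 over 9521 genes), so no names, coordinates or sequences were taken from it.

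Expected counts were rounded to whole numbers and tested with edgeR 4.0.16 in R 4.3.3 (TMM factors, filterByExpr, quasi-likelihood test, all groups in 1 fit, Benjamini-Hochberg adjustment over 8623 genes). A call needed an adjusted p under 0.05 and an absolute log2 fold change of at least 1. All 18 members passed the filter. Alternatives were DESeq2 1.42.0, limma 3.58.1 on log2(FPKM + 1), other scalings and filters, and leaving out each library. The scripts were tested on simulated data. The main fits used no pairing of libraries, and only those with a replicate block did. A pairing by the letters F, S and T was taken to hold between the mutants, but not with Ku70. The replicate block over all groups nevertheless paired the Ku70 libraries by letter too, whereas the blocked fit of both mutants alone left Ku70 out. All 3 same-letter correlations of deviations from the group mean exceeded 0.1 between the mutants (0.101 to 0.581), against -0.174 to 0.263 over 6 pairs with Ku70. Different letters also exceeded 0.1, as MuPOX01907 S with MuPOX08340 T (0.25) and Ku70 S with MuPOX01907 F (0.297). A pairing of the S libraries (0.101) is therefore not shown.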

Additional observations from a re-analysis of the deposited data

How the results depend on the processing

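The number of genes that meet the rule depended on its thresholds and on single libraries. It was 70 at a lower fold threshold and 8 at 2-fold in place of 1.5-fold, 20 and 12 with a lowest mutant value of 1 and 10 FPKM, 22 without the limits between mutants, and 25 after TMM-derived scaling, 14 of them among the 18. Without a library it ranged from 17 to 92, with 92 without Ku70 T, 35 without Ku70 F and 33 without MuPOX08340 F. All 18 remained in 7 of these 9 settings. POX08027 was lost without MuPOX01907 S, and POX06324, POX07971 and POX08027 without MuPOX08340 F, since the limits between mutants then failed. The 612 fold changes of members against Ku70 under other settings were all above 0. The 1.5-fold margin of the rule left little room for another sign, so this is no test.

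Members called between the mutants numbered 3 with limma on log2(FPKM + 1) and after TMM-derived scaling, against 5, and 3 to 6 when a library was left out, with 3 without MuPOX01907 F, MuPOX08340 S or MuPOX08340 T. Over all genes tested, limma called 535 higher in MuPOX01907 and 1112 lower, and 851 and 644 after TMM-derived scaling. With a library left out, 777 to 1009 were called higher and 708 to 968 lower. POX06951 and POX06324 were called in each setting. POX08027 was not called in 10 of 17, and its main log2 difference of -1.003 lay at the minimum size of 1. It was -0.99 with DESeq2 (adjusted p 0.0095) and -0.94 with limma after TMM-derived scaling (adjusted p 0.023), both short of that size. With the replicate block in edgeR it was -1.01, at an adjusted p of 0.0503. The median log2 fold change of members between the mutants was 0.04 with limma, 0.05 with a pseudocount of 0.1 and 0.31 to 0.51 with a library left out. Against Ku70 in MuPOX01907 it was 2.17 with limma. Deposited FPKM carry no TMM factor, and the median of all genes was then -0.29 in MuPOX01907 against Ku70 and -0.34 between the mutants. The replicate block called 18, 15 and 4 members higher in the 3 comparisons, where 870, 271 and 912 of 8623 genes were, and lost POX08027 between the mutants. With Ku70 left out of the model and a replicate block added, an alternative chosen after seeing the data, 5 members were called and the median was 0.38. All 5 were higher in MuPOX01907, where 1017 of 8478 genes were called higher. Of 936 values of single members, 883 moved by less than the spread between libraries and 0 calls reversed. Of these values, 612 are against Ku70, where the rule left little room for another sign. A reversal was counted only for members called in the main fit. POX05483, not called between the mutants, went from log2 0.07 to -0.24 with limma on log2(FPKM + 1) and was not counted.

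Low counts limit POX07845, POX08027 and POX06323, whose lowest library held 6, 7 and 9 reads.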
